A study of Mus musculus with 38 samples.

Results

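BV2 is a mouse microglial cell line, made by immortalising brain microglia with a virus that carries raf and myc oncogenes, and it stands in here for the resident macrophages of the brain. The response of BV2 cells grown alone to an almost complete lack of oxygen was measured by sequencing of poly(A) RNA. It rests on 4 of the 38 RNA libraries of the study, taken by their labels: 2 from monocultures kept for 16 h below 0.1% oxygen (hypoxia) and 2 from monocultures kept at 21% oxygen (normoxia). No other agent was given, the labels list the 2 libraries of each group as biological replicates, and all come from this single line.

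Other libraries of the study were used only to estimate the spread or to set values beside these. BV2 cells from direct co-culture with glioma cells (2 libraries at each oxygen level) shared the fit. GL261, a mouse glioma line stably carrying the plasmid pEGFP-N1, was grown alone at both oxygen levels (2 libraries each). In a further experiment BV2 cells received the solvent dimethyl sulfoxide (DMSO) at both oxygen levels (2 libraries each), and 2 hypoxic BV2 libraries with the histone deacetylase inhibitor panobinostat entered that fit for its spread alone. Chromatin accessibility, which the study also measured in BV2 cells, was not analysed here.

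Cells sense oxygen through prolyl hydroxylases, which need it to mark the alpha subunits of hypoxia-inducible factor (HIF) for capture by the von Hippel-Lindau protein and degradation. When oxygen runs short the HIF subunits persist, bind short DNA elements and switch on genes for glucose uptake, glycolysis, mitophagy and vessel growth. Oxygen is also a substrate of the enzymes that form disulfide bonds in the endoplasmic reticulum, of histone and DNA demethylases and of nitric oxide synthase, so severe hypoxia meets protein folding, chromatin and the inflammatory output of a macrophage at the same time.

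The 4 libraries held 17503508 to 23568254 counts, so that a floor of 3 counts stands for 0.127 to 0.171 CPM (each count scaled to a common library total), which covers counting error only. Levels below are CPM scaled by the trimmed mean of M values (TMM), and they can be compared between libraries for a gene but not between genes, since they are not divided by transcript length. A gene is said to have risen, fallen or been called where the quasi-likelihood test of edgeR gave a Benjamini-Hochberg adjusted p-value under 0.05, and a log2 fold change is hypoxia over normoxia with its standard error (SE). Of 14432 genes that passed the filter on low counts, 8931 were called, which is 61.9%: 4455 rose (30.9%) and 4476 fell (31.0%). With a fold of at least 2 as well, 2391 rose (16.6%) and 1980 fell (13.7%), and these shares are the background for each list below. At an 8-fold change or more the balance was 379 genes higher against 40 lower. The libraries of the 2 groups did not overlap in 79.52% of tested genes, and the common coefficient of variation between replicates was 0.096. Among the 8931 called genes the groups did not overlap in 8925, so a lack of overlap stated below for a called gene adds almost nothing to its call. Values are relative to the total of each library, and in bulk RNA fewer cells of a kind and less RNA per cell cannot be told apart.

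**Figure D1:**
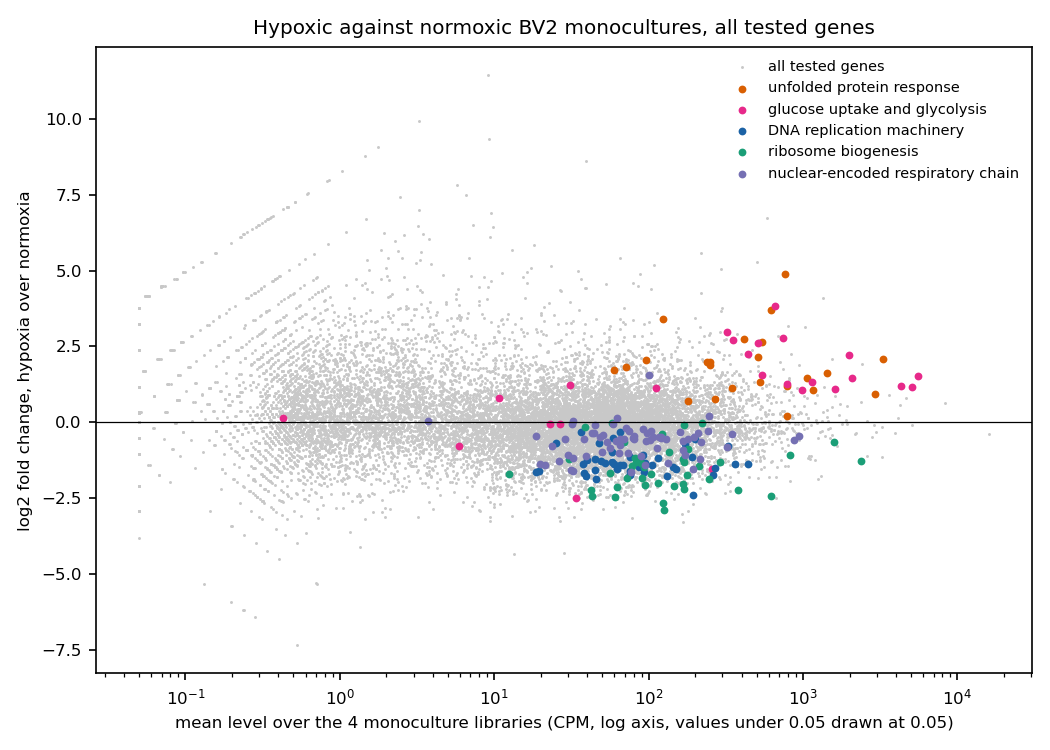
Log2 fold change (hypoxia over normoxia, vertical axis) against the mean level over the 4 BV2 monoculture libraries (CPM, log axis) for the 14432 tested genes, with 5 gene lists in colour. Members of the unfolded protein response and most of the glycolysis list lie above 0, and members of DNA replication, ribosome biogenesis and most of the respiratory chain lie below it.

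Among well-expressed genes the largest rises held oxygen sensors, mitophagy and stress genes. The genes named here are among those with the 12 highest and 12 lowest log2 fold changes at a mean log2 CPM of 4 or more. The rule also required groups without overlap and no predicted-gene name, so the separation of the groups in these genes follows from it. Selenbp1 (ENSMUSG00000068874, chr3:94933056-94944758), which encodes a selenium-binding methanethiol oxidase, stood at 11.9 and 9.98 CPM in the normoxic and 1284 and 1025 CPM in the hypoxic libraries, a ratio of 105 between the group means (log2 fold change 6.72, SE 0.23, edgeR adjusted p 4.72e-12). Of the 75-base words of Selenbp1 29.9% also occur in other genes, so that its reads are partly uncertain. Rora (ENSMUSG00000032238, chr9:68653786-69388246), a nuclear receptor of the circadian clock, was measured at 3.06 and 2.90 CPM in normoxia and 126 and 129 CPM in hypoxia (log2 fold change 5.42, SE 0.15). Ankrd37, a target of HIF, rose from 6.67 and 5.08 to 206 and 217 CPM. Hyal1, a hyaluronidase of the lysosome, rose from 2.89 and 4.05 to 67.8 and 82.3 CPM, with 49% of the words of Hyal1 shared. Others of these risers, Egln3, Bnip3, Trib3, Ppp1r3b, Ero1l, Dusp1 and Ddit3, had log2 fold changes between 4.50 and 5.59, and are taken up with their pathways.

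The largest falls among well-expressed genes came from several groups, with Pif1 first. Pif1 (ENSMUSG00000041064, chr9:65587160-65595967), a helicase of telomeres and replication forks, went from 50.8 and 57.2 CPM in normoxia to 2.0 and 3.40 CPM in hypoxia (log2 fold change -4.31, SE 0.22, edgeR adjusted p 2.3e-10). Lmnb1, the gene of lamin B in the nuclear envelope, fell from 317 and 317 to 47.4 and 36.3 CPM. Hmgb3, a chromatin protein, fell from 57.5 and 59.4 to 6.43 and 7.19 CPM with 17.5% of its words shared. In each of these genes the normoxic pair was close together. Cacybp, which encodes a calcyclin-binding partner of ubiquitin ligases, fell from 304 and 280 to 36.6 and 35.5 CPM. Actr3b, an actin-related protein, fell from 42.5 and 43.2 to 6.72 and 5.49 CPM. Rab3il1, Ptp4a3 and the translation helicase gene Dhx29 had log2 fold changes of -3.11, -2.83 and -2.83, while Gart, Plk1, Bop1 and Fanca appear below.

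**Figure D2:**
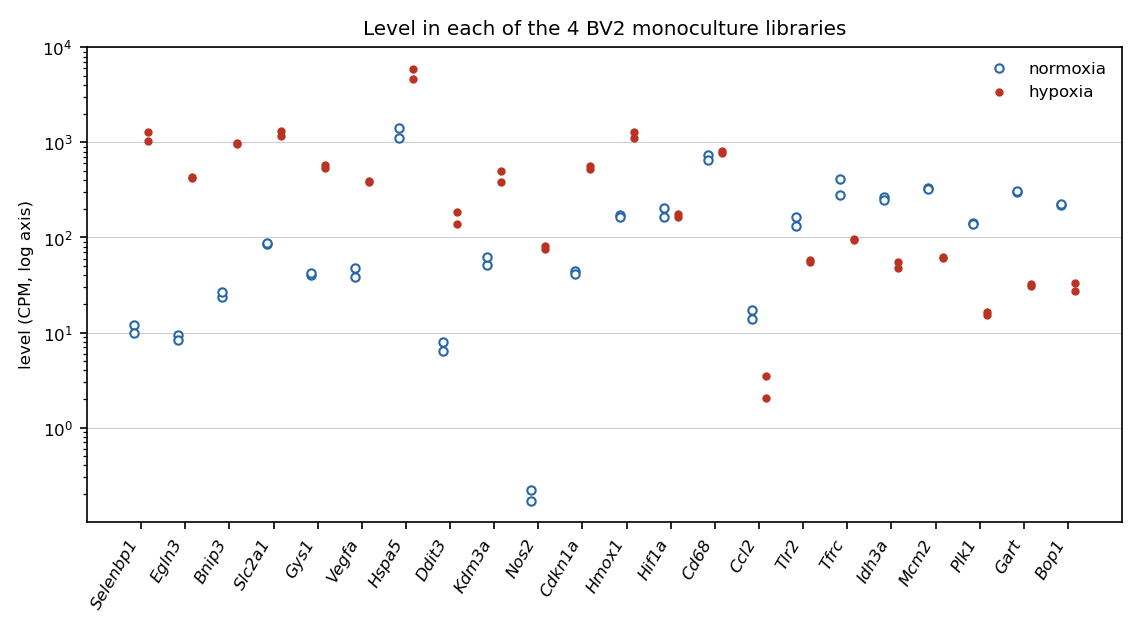
Level in each of the 4 BV2 monoculture libraries (CPM, log axis) for 22 genes described in the text, with open blue circles for normoxia and filled red circles for hypoxia. The 2 libraries of a group lie close together for most genes, and Hif1a and Cd68 are the genes shown that were not called.

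Among the oxygen-sensing genes, 2 prolyl hydroxylases and Vhl rose while the transcript of HIF1 alpha was not called. All 17 members of this list passed the filter, and 9 rose and 4 fell, with a median log2 fold change of 0.92 against 0.00 over all tested genes. Hif1a, the subunit whose protein is stabilised in low oxygen, stood at 163 and 204 CPM in normoxia and 162 and 178 CPM in hypoxia, and these groups overlapped (log2 fold change -0.11, SE 0.13). Its relative Epas1, which encodes HIF2 alpha, rose from 14.3 and 16.9 to 35.6 and 34.5 CPM. Hif3a, which encodes HIF3 alpha, rose from 0.638 and 0.802 to 3.77 and 3.90 CPM. Arnt, the constant partner subunit, rose by 1.01 on the log2 scale (SE 0.12).

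Among the prolyl hydroxylases, Egln3 (ENSMUSG00000035105, chr12:54178981-54203860) rose from 9.35 and 8.42 CPM in the normoxic to 421 and 435 CPM in the hypoxic libraries (log2 fold change 5.59, SE 0.17, edgeR adjusted p 1.98e-12). Egln1, the main oxygen sensor of this family, rose from 84.5 and 89.3 to 676 and 634 CPM. Egln2 stayed between 35.7 and 40.6 CPM in all 4 libraries and was not called, and Hif1an, the asparagine hydroxylase that blocks HIF activity, was not called either (log2 fold change 0.15, SE 0.11). Vhl, the gene of the von Hippel-Lindau protein, rose from 17.6 and 19.6 to 55 and 53.9 CPM, whereas the other 4 members of its ubiquitin ligase, Cul2, Rbx1, Elob and Eloc, fell by 0.57 to 0.94 on the log2 scale. Of these Elob missed the threshold without the second hypoxic (-0.35) or the first normoxic library (-0.43). Elob missed it too with all 16 BV2 and GL261 libraries in 1 fit (-0.45). In the BV2 libraries with DMSO 9 of the 17 members of the whole list were called higher and 1 lower. The feedback genes Bhlhe40, Bhlhe41 and Cited2 all rose, with log2 fold changes of 2.72, 1.59 and 0.92.

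Promoters of 3 genes that rose are shown because HIF binds a short core element, ACGTG or GCGTG on either strand. The windows are the 250 bases before the annotated start, 5′ to 3′ on the strand of the gene, from RefSeq on GRCm38.p6, at chr7:138909507-138909756 (minus strand) for Bnip3, chr4:119108495-119108744 (plus strand) for Slc2a1 and chr3:94932833-94933082 (plus strand) for Selenbp1, and capitals mark every match to the core.
Bnip3: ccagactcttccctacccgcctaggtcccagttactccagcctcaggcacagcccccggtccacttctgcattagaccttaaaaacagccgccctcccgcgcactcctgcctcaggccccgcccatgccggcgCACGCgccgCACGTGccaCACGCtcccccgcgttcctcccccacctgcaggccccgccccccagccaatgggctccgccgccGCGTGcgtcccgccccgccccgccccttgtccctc
Slc2a1: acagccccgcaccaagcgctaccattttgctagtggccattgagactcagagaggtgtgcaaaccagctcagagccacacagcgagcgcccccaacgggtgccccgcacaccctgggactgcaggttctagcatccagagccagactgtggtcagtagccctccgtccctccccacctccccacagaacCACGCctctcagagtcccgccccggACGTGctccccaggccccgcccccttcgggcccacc
Selenbp1: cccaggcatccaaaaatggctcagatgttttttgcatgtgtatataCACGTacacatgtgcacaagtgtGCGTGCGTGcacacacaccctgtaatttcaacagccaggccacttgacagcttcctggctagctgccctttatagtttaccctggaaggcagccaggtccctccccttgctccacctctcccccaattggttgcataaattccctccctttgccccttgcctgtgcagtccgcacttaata
Matches numbered 5 in Bnip3, 2 in Slc2a1 and 3 in Selenbp1, where matches that overlap are counted apart and the palindrome CACGTG in Bnip3 holds a match on each strand. The element is common: 43.8% of all 32851 RefSeq promoters hold at least 1 match in the 300 bases around the start (250 before, 50 after). Of the 41 promoters of 24 genes of the glycolysis list, 73.2% did, with a median GC content of 60.3% against 52.7% over all promoters. Among the 12842 promoters of tested genes, whose median GC content was 60.3% too, the share was 61.0%. It was 57.7% for genes at least 2-fold higher and 57.8% for genes not called. A match is a description of letters and shows no binding.

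Glucose uptake and glycolysis rose along the whole route from import to pyruvate. In this list 25 of 26 members passed the filter, Ldhb having 0 counts in each of the 4 libraries, and 19 rose and 3 fell (median log2 fold change 1.24). All 15 glycolytic enzymes tested rose, each at least 2-fold. The glucose transporter Slc2a1 (ENSMUSG00000028645) went from 85 and 87.5 CPM in normoxia to 1164 and 1315 CPM in hypoxia (log2 fold change 3.84, SE 0.14, edgeR adjusted p 7.25e-12). Hk2, the hexokinase that traps glucose in the cell, rose from 137 and 150.1 to 863 and 902 CPM. Both hypoxic libraries lay above both normoxic ones for each of these genes, as they did for the aldolase Aldoc, at 76 and 68.9 CPM against 576 and 560.3 CPM.

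Isoforms and regulators differed in size and direction. Pfkp and Pfkl, the platelet and liver forms of phosphofructokinase, rose by 2.76 and 2.71 on the log2 scale, and the muscle form Pfkm by 1.13. Pgk1, Eno1 and Gapdh rose by 2.21, 1.15 and 1.21, but 52.8%, 23% and 22.6% of their words occur in other genes. Ldha, which turns pyruvate into lactate, rose from 1040 and 983 to 2327 and 2047 CPM. The lactate exporter Slc16a3 rose from 264 and 287 to 815 and 819 CPM. The related carrier Slc16a1 moved the other way, from 354 and 408 to 122 and 141 CPM (log2 fold change -1.54, SE 0.15). The regulators that make or remove fructose 2,6-bisphosphate did not rise as a group: Pfkfb3 was at 20.3 and 26.2 CPM in normoxia and 20.4 and 24.6 CPM in hypoxia, and Tigar, a bisphosphatase that slows glycolysis, fell from 56.8 and 57.3 to 9.08 and 11.3 CPM. Summed over the list, these transcripts took 1.53% and 1.45% of all counts in the normoxic and 4.0% and 3.86% in the hypoxic libraries.

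In glycogen metabolism the largest rises were on the side of synthesis. Of 15 members 13 passed the filter, and 10 rose and 2 fell. Gys1, glycogen synthase, rose from 40 and 42.5 CPM in normoxia to 579 and 539 CPM in hypoxia (log2 fold change 3.76, SE 0.13). Ppp1r3b, the phosphatase subunit that activates glycogen synthase, rose from 5.61 and 5.93 to 167 and 175 CPM, the largest change in the list (log2 fold change 4.89, SE 0.14). No hypoxic value lay near a normoxic value in either gene. The branching enzyme Gbe1 rose from 30.3 and 35.4 to 191 and 198 CPM. The phosphoglucomutase Pgm1 rose from 138 and 138 to 913 and 874 CPM. The brain form of glycogen phosphorylase, Pygb, fell slightly from 128 and 128 to 97 and 96.8 CPM, and the liver form Pygl had 0 counts in all 4 libraries. Tested but without a count in these 4 libraries was Ppp1r3c, which passed the filter through the co-culture libraries alone.

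Genes that turn pyruvate and damaged mitochondria away from respiration rose. In the list of the mitochondrial switch and mitophagy 20 of 23 members passed the filter, and 15 rose and 1 fell (median log2 fold change 1.37). Bnip3 (ENSMUSG00000078566, chr7:138890836-138909519), a mitophagy receptor of the outer membrane, went from 23.8 and 26.6 CPM in normoxia to 981 and 969 CPM in hypoxia (log2 fold change 5.28, SE 0.25), and 34.4% of the words of Bnip3 occur elsewhere too. Its relative Bnip3l rose from 60.1 and 52.3 to 392 and 415 CPM. The mitochondrial damage kinase Pink1 rose from 20.5 and 18.7 to 88.6 and 83 CPM. All 5 mitophagy genes tested rose, but the receptor gene Fundc1, with the smallest log2 fold change (0.45), missed the threshold without the second hypoxic (0.40) or the second normoxic library (0.41). Pdk1, the kinase that closes the pyruvate dehydrogenase gate, rose from 133 and 140.1 to 628 and 679 CPM. The iron-sulfur scaffold gene Iscu was the member that fell, from 52.8 and 42.9 to 19.6 and 14.3 CPM.

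Nuclear genes of the respiratory chain fell together but by little. Of 68 members, all tested, 57 fell and 1 rose, with a median log2 fold change of -0.54, and 16 fell at least 2-fold. Within the chain 27 of 36 subunits of complex I, 4 of 4 of complex II, 8 of 9 of complex III, 8 of 9 of complex IV and 10 of 10 of the ATP synthase fell. The complex I subunit Ndufs8 fell from 119 and 114 to 43.3 and 31.7 CPM. The cytochrome gene Cyc1 fell from 301 and 272 to 116 and 81.5 CPM. Ndufv3, a flavoprotein subunit of complex I, was the exception and rose from 55.5 and 46.4 to 165 and 137 CPM (log2 fold change 1.56, SE 0.15). In the BV2 libraries with DMSO only 10 of the 68 fell and 2 rose, with a median of -0.17, against a background there of 20.2% of genes lower and 17.2% higher.

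Transcripts of the mitochondrial genome mostly were not called. Of 12 tested, the median log2 fold change was 0.05, 2 rose and none fell by the test of edgeR (1 was lower at an unadjusted p under 0.05, and 0 with DESeq2). mt-Nd1 stood at 3481 and 5329 CPM in normoxia and 3708 and 3168 CPM in hypoxia, with overlapping groups, and was called lower, at -0.64, without the first normoxic library. mt-Co1 was at 5372 and 7593 CPM in normoxia and 11570 and 8588 CPM in hypoxia and was called higher (log2 fold change 0.64, SE 0.19). Other annotated genes share 39.8% of the words of mt-Co1 and 99.5% of mt-Co2, the other called gene. These calls rest on single libraries: without the first normoxic library 0 were higher and 4 lower, and without the first hypoxic library 0 were higher. The value of mt-Co1 was then 0.40 and 0.43.

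In the monocultures the citric acid cycle fell with the chain. Of 24 tested members 17 fell and 2 rose (median log2 fold change -0.52), and 13 of the 14 genes of the cycle proper fell. Idh3a, the catalytic subunit of the NAD-dependent isocitrate dehydrogenase, fell from 269 and 249 to 54.9 and 47.3 CPM (log2 fold change -2.34, SE 0.13, edgeR adjusted p 5e-10). Ogdh, of the oxoglutarate dehydrogenase complex, fell from 288 and 280.4 to 114 and 107 CPM. Citrate synthase, Cs, fell from 269.5 and 246 to 132 and 114 CPM. In each of these the hypoxic libraries lay below the normoxic ones. Pdha1, a catalytic subunit of the pyruvate dehydrogenase that feeds the cycle, was not called (log2 fold change -0.19, SE 0.10). The 2 members that rose, the cytosolic dehydrogenase Idh1 and the malic enzyme Me2, did so by 0.47 and 0.59 on the log2 scale. In the BV2 libraries with DMSO only 5 of the 24 fell and 2 rose, with a median of -0.21. The background there was 20.2% of genes lower and 17.2% higher.

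Single genes of lipid storage and cholesterol moved in both directions. Hilpda, which blocks lipolysis at the lipid droplet, rose from 10.3 and 11.9 CPM in normoxia to 129 and 109 CPM in hypoxia (log2 fold change 3.42, SE 0.15), and the droplet coat gene Plin2 from 79.9 and 69.5 to 303 and 285 CPM. Lpin1, a phosphatidate phosphatase, rose from 42.6 and 43.6 to 275 and 266 CPM, whereas fatty acid synthase, Fasn, fell from 894 and 1120 to 531 and 522 CPM. Of 22 tested genes of fatty acid oxidation and storage 8 rose and 5 fell, and 7 of the 11 oxidation genes were not called. Over all tested genes 30.9% rose and 31.0% fell, so these counts are near the background. Of 31 tested cholesterol genes 14 rose and 7 fell. Insig2, which holds back the sterol sensor, rose from 23.2 and 24.4 to 79.7 and 82.7 CPM. Scap, the escort of the sterol-regulated factor SREBP, fell from 107 and 108 to 38 and 36.1 CPM. Abca1, a cholesterol exporter, rose from 44.9 and 62.9 to 141 and 161 CPM. Apoe, the carrier of lipids between brain cells, rose from 640.5 and 679 to 1776 and 1624 CPM. Lower members became 3 of 22 and 3 of 31 when all 16 BV2 and GL261 libraries shared 1 fit, 2 and 2 without the second hypoxic library, 3 of 22 without the first normoxic, and 4 and 3 of 31 without the first hypoxic or the second normoxic library.

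Secreted signals moved in both directions, while the growth regulators listed with them rose. Vegfa (ENSMUSG00000023951), the main growth factor of vessels, rose from 38.9 and 47.9 CPM in normoxia to 380.4 and 391 CPM in hypoxia (log2 fold change 3.15, SE 0.14). Its relative Pgf rose from 0.680 and 0.579 to 6.67 and 7.52 CPM. Angptl6, an angiopoietin-like secreted protein, rose from 3.57 and 3.30 to 61.8 and 86 CPM. Ndrg1, a stress-responsive growth regulator, rose from 151 and 147 to 2548 and 2571 CPM. Hypoxic and normoxic libraries of these genes did not overlap. The list had 8 members higher and 3 lower of 14 tested. All 4 growth regulators rose, while of 10 ligands 4 rose, 3 fell and 3 were not called (median log2 fold change -0.15). A further 5 members did not pass the filter, among them adrenomedullin, Adm, with 0 and 0 counts in normoxia and 4 and 3 counts in hypoxia. The 3 lower calls became 0 without the first hypoxic library and 1 without the second normoxic library. In the list of acid handling, Car12, a membrane carbonic anhydrase, fell from 73.6 and 78.8 to 14.2 and 14.5 CPM and Car9, a classical target of HIF in tumours, was at 1.32 and 0.713 CPM in normoxia and 1.59 and 0.824 CPM in hypoxia and was not called. Bsg, the chaperone of lactate carriers, rose from 231 and 210.5 to 816 and 776 CPM.

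Oxygen-dependent dioxygenases that act on collagen and chromatin, listed with 1 partner subunit, mostly rose. Of 7 tested genes of procollagen hydroxylases, the partner subunit P4hb included, 5 rose. Among them was Plod2, a lysyl hydroxylase, which rose from 29.1 and 37.8 to 333 and 399 CPM. P4ha1, a prolyl hydroxylase of collagen, rose from 82.9 and 87.6 to 331 and 385 CPM, while none of the 6 collagens tested exceeded 3.79 CPM in a library. That value was reached by Col4a1, of basement membranes, which rose from 1.19 and 1.02 to 3.19 and 3.79 CPM. Of 19 tested JmjC demethylases and TET dioxygenases 15 rose and 3 fell (median log2 fold change 1.34). All 6 tested demethylases of histone H3 lysine 9 rose. Kdm3a, of this kind, went from 51.5 and 62.1 CPM in normoxia to 380.5 and 503 CPM in hypoxia (log2 fold change 2.96, SE 0.15). Kdm4b rose from 25.8 and 29.9 to 169.9 and 166 CPM. Kdm6b, which acts on lysine 27, rose from 10.8 and 13 to 89.7 and 92.3 CPM. Each of them was higher in both hypoxic libraries than in either normoxic library. The members that fell were Kdm2b and the ribosomal oxygenases Riox1 and Riox2, the last from 57 and 58 to 12.4 and 12.5 CPM.

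The unfolded protein response, which senses misfolded proteins in the endoplasmic reticulum, rose almost without exception. Of 23 tested members 22 rose and none fell (median log2 fold change 1.81), and the chaperone Canx alone was not called (log2 fold change 0.21, SE 0.16). Without the first hypoxic library Canx passed the threshold at 0.45, and without the second its value was -0.04. Hspa5 (ENSMUSG00000026864), the chaperone also known as BiP, stood at 1120 and 1411 CPM in normoxia and 4690 and 5975 CPM in hypoxia (log2 fold change 2.08, SE 0.17, edgeR adjusted p 2.84e-08). Ero1l (ENSMUSG00000021831), the oxidase that passes electrons from new disulfide bonds to oxygen, rose from 48.1 and 52 to 1330 and 1631 CPM. The second hypoxic library was the higher for both genes.

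Chaperones, sensors and the degradation branch all took part. Dnajb9, a co-chaperone, rose from 20.4 and 22.4 to 209 and 247 CPM. Herpud1, a scaffold of the degradation machinery, rose from 82.3 and 95.7 to 1028 and 1261 CPM. Its partner Syvn1, a ubiquitin ligase, rose from 99.8 and 112 to 634 and 806 CPM. The sensors Ern1 and Eif2ak3 rose by 1.81 and 1.73 on the log2 scale, Atf6 by 1.15 and the transcription factor Xbp1 by 0.76. Together the members took 0.760% and 0.928% of all counts in normoxia and 2.08% and 2.80% in hypoxia. The promoter of Hspa5, 250 bases before the start at chr2:34771840-34772089 (plus strand) (RefSeq, GRCm38.p6), is shown with every CCAAT box on either strand in capitals, the element bound by NF-Y that the stress elements of this pathway contain.
Hspa5: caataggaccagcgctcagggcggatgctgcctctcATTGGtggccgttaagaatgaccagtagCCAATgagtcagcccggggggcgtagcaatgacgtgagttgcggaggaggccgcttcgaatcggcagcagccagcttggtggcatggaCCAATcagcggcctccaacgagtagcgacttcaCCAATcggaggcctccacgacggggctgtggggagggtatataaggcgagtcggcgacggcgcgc
It holds 4 such boxes. CCAAT occurred in 85.7% of the 21 promoters matched to this list and in 37.4% of all RefSeq promoters, with median GC contents of 66.0% and 52.7%.

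The integrated stress response, which slows translation and raises the factor ATF4, rose in all its factors and in part of its targets. All 5 factors rose, among them Ddit3 (ENSMUSG00000025408), the factor CHOP, from 8.03 and 6.37 to 139 and 187 CPM (log2 fold change 4.50, SE 0.22), and Atf4 itself from 355 and 325 to 748 and 736 CPM. Of the 21 targets 11 rose, 1 fell and 9 were not called. Trib3, a pseudokinase that feeds back on ATF4, rose from 20.7 and 13.8 to 545 and 598 CPM. Ddit4, an inhibitor of mTOR, rose from 8.42 and 10.2 to 198 and 197 CPM. Ppp1r15a, the phosphatase subunit that restores translation, rose from 11.4 and 16.5 to 139 and 150.4 CPM. Several genes of amino acid and folate metabolism were not called or fell. Psat1, of serine synthesis, was at 544 and 466 CPM in normoxia and 433 and 438 CPM in hypoxia and was not called. Mthfd2, of the mitochondrial folate route, was at 155 and 119 CPM in normoxia and 118 and 122 CPM in hypoxia and was not called either, though it passed the threshold at -0.37 without the second normoxic library. Shmt2, the mitochondrial serine hydroxymethyltransferase, fell from 390.4 and 337 to 178 and 155 CPM.

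**Figure D3:**
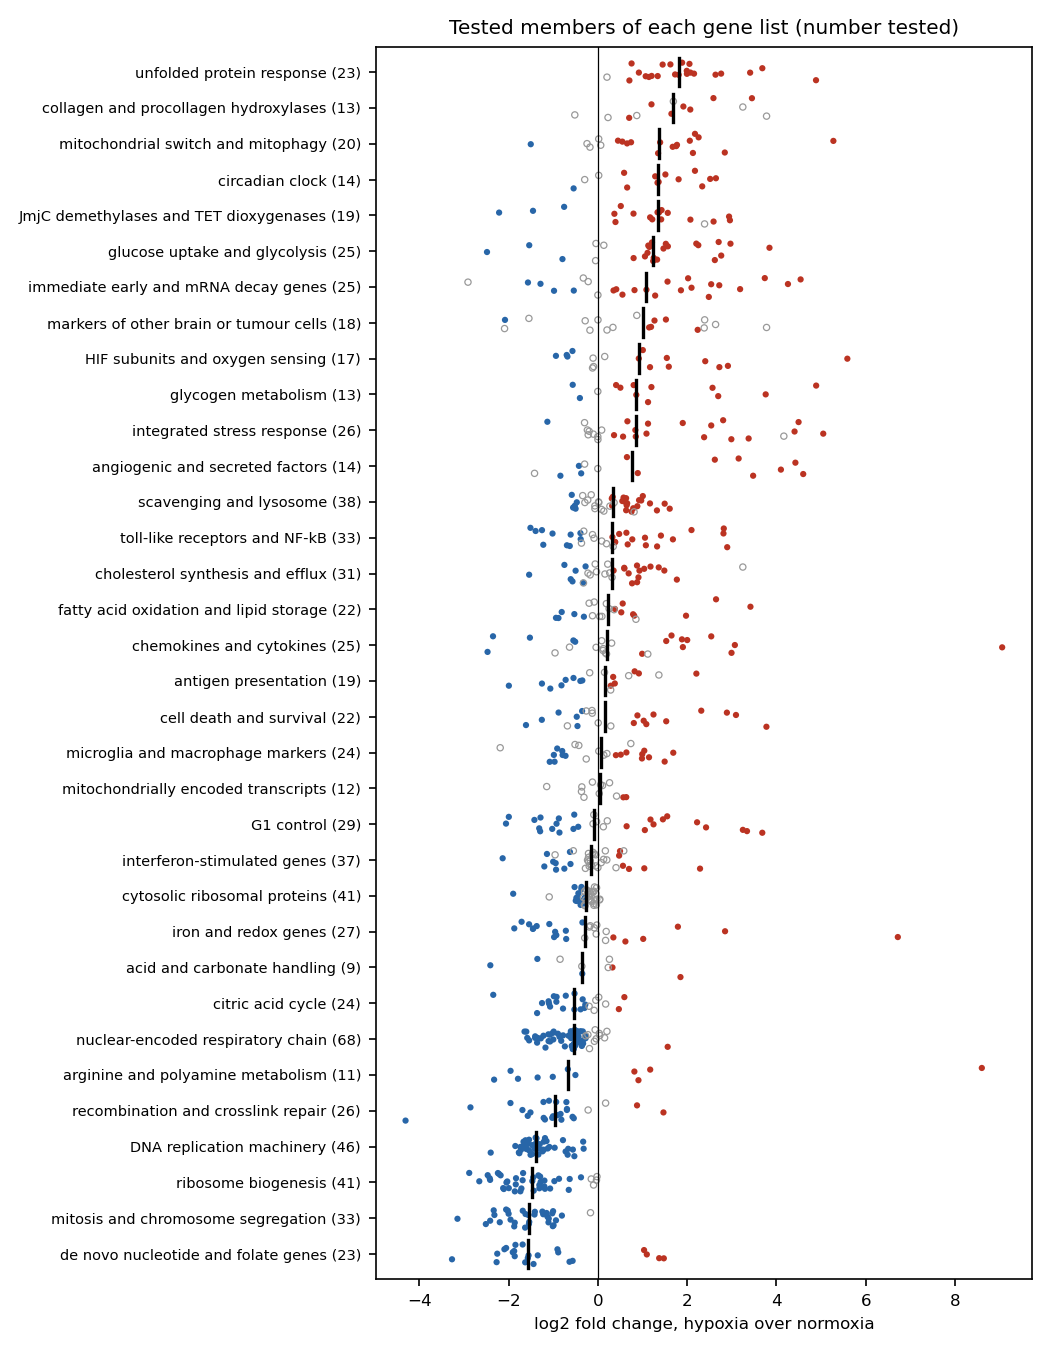
Log2 fold change (hypoxia over normoxia) of every tested member of the gene lists, in order of the list median (black bar), with red points for members called higher, blue points for members called lower and open grey points for members not called. The unfolded protein response has the highest median, 1.81, and the nucleotide and folate genes the lowest, -1.57.

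The machinery of DNA replication fell as a whole. All 46 tested members fell, 37 of them at least 2-fold, with a median log2 fold change of -1.38. Mcm2 (ENSMUSG00000002870), a subunit of the replicative helicase, went from 328 and 327 CPM in normoxia to 63 and 61.2 CPM in hypoxia (log2 fold change -2.40, SE 0.14, edgeR adjusted p 6.25e-10). Rrm2, a subunit of the ribonucleotide reductase that makes DNA precursors, fell from 213 and 194 to 64.9 and 55.5 CPM. The smallest fall was that of the licensing factor gene Cdc6, from 70.3 and 74.5 to 55.9 and 60.3 CPM (log2 fold change -0.32), and its groups did not overlap. The call of Cdc6 was lost with DESeq2 (-0.29) and without any single one of the 4 libraries (-0.24 to -0.36). It was also lost with all 16 BV2 and GL261 libraries in 1 fit (-0.20), with a floor of 5 CPM (-0.24) and with no filter beyond 1 count (-0.30). The sliding clamp gene Pcna fell from 438 and 393 to 268 and 216 CPM. The polymerase gene Pola1 fell from 106 and 122 to 38 and 36.7 CPM. The share of all counts held by the list was 0.708% and 0.709% in normoxia and 0.293% and 0.264% in hypoxia. Reads of Gins2 and Fen1 are uncertain, with 64.7% and 73.7% of their words shared with other genes.

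The promoter of Mcm5, another helicase subunit, which fell from 414 and 389 to 126 and 115 CPM, is shown as the 250 bases before its start at chr8:75109259-75109508 (plus strand) (RefSeq, GRCm38.p6) because E2F factors drive this group of genes. Capitals mark matches to TTTCGCGC or TTTGGCGC on either strand.
Mcm5: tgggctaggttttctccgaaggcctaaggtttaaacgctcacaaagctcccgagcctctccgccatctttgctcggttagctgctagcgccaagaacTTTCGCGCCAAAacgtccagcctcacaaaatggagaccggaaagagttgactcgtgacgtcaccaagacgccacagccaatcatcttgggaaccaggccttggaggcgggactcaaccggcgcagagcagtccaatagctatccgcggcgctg
The run in capitals is read as a match on both strands. Such a match occurred in 0.813% of all RefSeq promoters and in 1.49% of those of tested genes. Only 36 of the 46 tested members had a promoter entry, fewer than 80%, so no share is given for the list.

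Repair genes followed replication with a few exceptions. Of 26 tested genes of recombination and crosslink repair 22 fell and 2 rose (median log2 fold change -0.97). All 11 recombination genes fell. Fanca, of the crosslink repair complex, fell from 83.5 and 95.2 to 12.3 and 12.4 CPM (log2 fold change -2.85, SE 0.14). The mismatch repair gene Msh6 rose from 167 and 198 to 315 and 356 CPM. The other member that rose was the helicase gene Helb, from 26.8 and 29.9 to 73.8 and 83.3 CPM.

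Mitotic genes fell likewise. Of 33 tested members 32 fell and none rose, 29 at least 2-fold, with a median log2 fold change of -1.54, and the checkpoint kinase Bub1 was the member not called (log2 fold change -0.16, SE 0.14). Plk1 (ENSMUSG00000030867), the kinase that drives entry into mitosis, fell from 144 and 137 CPM in normoxia to 16.3 and 15.4 CPM in hypoxia (log2 fold change -3.14, SE 0.18). Cdc20, the activator of the anaphase-promoting complex, fell from 243 and 253 to 49.7 and 37.5 CPM. Aurka, a kinase of the spindle poles, fell from 174 and 154 to 35.3 and 30 CPM. The proliferation marker Mki67 fell less, from 677 and 828 to 356 and 343 CPM (log2 fold change -1.10, SE 0.19). Ccnb1, mitotic cyclin B, fell from 230.2 and 236 to 48.2 and 45.4 CPM, and its promoter (RefSeq, GRCm38.p6, 250 bases before the start at chr13:100786487-100786736 (minus strand)) is shown with CCAAT boxes on either strand in capitals, the element that mitotic promoters carry in tandem.
Ccnb1: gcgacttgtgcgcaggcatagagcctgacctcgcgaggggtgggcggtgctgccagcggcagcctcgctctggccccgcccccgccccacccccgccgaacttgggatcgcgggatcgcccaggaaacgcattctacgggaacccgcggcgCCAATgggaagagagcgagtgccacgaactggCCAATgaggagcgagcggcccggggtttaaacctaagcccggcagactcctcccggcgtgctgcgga
It holds 2 boxes, and CCAAT occurred in 82.1% of 28 promoters of 27 mitotic genes against 37.4% of all RefSeq promoters and 37.8% of those of tested genes, at median GC contents of 59.8% and 52.7%. The same letters were thus frequent in a list that rose and in a list that fell.

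In G1 control, 4 of 7 inhibitors rose and 6 of 8 cyclins and their kinases fell. Cdkn1a (ENSMUSG00000023067), the inhibitor p21, rose from 44 and 41 CPM in normoxia to 569 and 525 CPM in hypoxia (log2 fold change 3.68, SE 0.13), and Cdkn1b, the inhibitor p27, from 25 and 30.7 to 122 and 138 CPM. Ccnd1, cyclin D1, fell from 142 and 148 to 36.3 and 36.6 CPM. Ccne1, cyclin E1, fell from 54.7 and 49.5 to 14.2 and 10.9 CPM. In all, 11 of 29 members rose and 13 fell, beside 30.9% and 31.0% of all tested genes. All 4 antagonists of MYC in this list, Mxd1, Mxd4, Mxi1 and Mnt, rose. Mxd4 went from 20.3 and 23.9 to 229.7 and 218 CPM. Mxd1 rose from 7.91 and 6.86 to 70.7 and 69.9 CPM. Mxi1 rose from 207 and 192 to 570.4 and 600 CPM. The mouse gene Myc rose too, but from 0.978 and 0.624 CPM to only 4.07 and 4.61 CPM, and the counts do not tell how much comes from the viral copy that immortalised the line.

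Synthesis of nucleotides and of ribosomes fell along with division. Of 23 tested nucleotide and folate genes 19 fell and 4 rose, with the lowest list median, -1.57. Gart (ENSMUSG00000022962, chr16:91621186-91646952), which carries out several steps of purine synthesis, fell from 298 and 308 CPM in normoxia to 30.9 and 32.1 CPM in hypoxia, a ratio of 9.62 between the group means (log2 fold change -3.27, SE 0.12, edgeR adjusted p 1.09e-11). Cad, which starts pyrimidine synthesis, fell from 526 and 589.8 to 114 and 120.5 CPM. Adsl, of the purine route, fell from 172 and 163 to 35.2 and 34.4 CPM. Members that rose included the folate genes Mthfd1l and Mthfs and the purine gene Impdh1, by 1.10 to 1.48 on the log2 scale.

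Ribosome biogenesis fell in 37 of 41 members, 32 of them at least 2-fold (median log2 fold change -1.47), and none rose. Bop1, of the complex that matures the large subunit, fell from 222 and 222 to 33.3 and 27.2 CPM (log2 fold change -2.88, SE 0.17). Its partner Pes1 stayed at 229 and 215 CPM in normoxia and 228 and 211 CPM in hypoxia and was not called. Nolc1, a nucleolar phosphoprotein, fell from 1088 and 993 to 206 and 183 CPM. Nucleolin, Ncl, fell from 3456 and 3292 to 1484 and 1295 CPM. Polr1b, a subunit of RNA polymerase I, fell from 108 and 119.5 to 30.1 and 33.6 CPM. The list took 1.45% and 1.40% of counts in normoxia and 0.595% and 0.540% in hypoxia. The cytosolic ribosomal proteins moved far less: 14 of 41 fell, none rose, and the median was -0.26. That count was 2 with all 16 libraries in 1 fit, 2 without the first normoxic and 3 without the second hypoxic library. Rps27l, a stress-related paralog, was the member that fell most, from 81 and 73.3 to 23.4 and 18.2 CPM. Polyamine genes fell as well, 6 of 7, with ornithine decarboxylase, Odc1, going from 396 and 379 to 79.6 and 75.2 CPM. Sat1, which breaks polyamines down, rose from 131 and 117 to 276 and 284 CPM.

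Nos2 (ENSMUSG00000020826, chr11:78920787-78960254), the inducible nitric oxide synthase of activated macrophages, rose from almost nothing. It was close to the floor in normoxia, at 0.170 and 0.223 CPM, and reached 82 and 75.2 CPM in hypoxia (log2 fold change 8.60, SE 0.25, edgeR adjusted p 1.71e-12). Nos2 rose in the DMSO libraries too (log2 fold change 7.79), from 0.670 and 0.278 to 74.7 and 137 CPM. Genes around it moved by less: Asl, which regenerates arginine, rose by 0.91, Gch1, of cofactor synthesis, by 0.82, and the arginine carrier Slc7a2 fell by 1.01. Arginase, Arg1, had 0 and 0 counts in normoxia and 1 and 1 in hypoxia, and Ass1 had none.

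Pattern receptors and their adaptors split by gene rather than moving as a block. Of 33 tested genes of toll-like receptors and NF-kB 16 rose and 10 fell, beside 30.9% and 31.0% of all tested genes. The count of those that fell is thus near the background. Tlr2, the receptor of bacterial lipoproteins, fell from 131 and 165 to 54.7 and 57.8 CPM (log2 fold change -1.39, SE 0.14), and its partner Tlr1 from 28.1 and 27.8 to 13.6 and 9.94 CPM. Tlr4, the receptor of endotoxin, rose from 31.9 and 35.4 to 80 and 99.2 CPM. Tlr6, which like Tlr1 pairs with Tlr2, rose from 12.5 and 12.7 to 55.4 and 52.4 CPM. The adaptors parted in a like way: Myd88 fell from 104 and 92.9 to 43.6 and 40.9 CPM, while Ticam1 rose from 18.5 and 15.7 to 119 and 123 CPM. Ticam2 rose from 13.5 and 14.1 to 93.5 and 100.3 CPM. Ticam1 and Ticam2 encode the adaptors TRIF and TRAM, which serve Tlr4 from endosomes. Tnfaip3, a brake on NF-kB, rose from 5.91 and 7.80 to 50.8 and 51.3 CPM. The inhibitor gene Nfkbia rose from 51.8 and 60.3 to 193 and 166 CPM. Of 8 cytosolic sensors 5 fell. Cgas, the sensor of cytosolic DNA, fell from 61.2 and 57.6 to 21.8 and 19.9 CPM.

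Chemokines and cytokines were mostly low and moved singly. Of 39 listed genes 25 passed the filter, 10 rose and 5 fell, beside 30.9% and 31.0% of all tested genes. Ccl2, which attracts monocytes, fell from 17.1 and 14 to 2.06 and 3.51 CPM (log2 fold change -2.47, SE 0.28). Tnf stayed at 12 and 17 CPM in normoxia and 15.9 and 15.5 CPM in hypoxia, and was not called. Ccl3, another chemokine, was at 313 and 310.1 CPM in normoxia and 374 and 328 CPM in hypoxia and was not called. Il15, a cytokine of lymphocyte survival, rose from 4.46 and 4.46 to 33.4 and 37.7 CPM. The growth factor Csf1 rose from 122 and 149.7 to 234 and 307 CPM. Cxcl2, which attracts neutrophils, had 0 counts in both normoxic libraries and reached 3.60 and 3.51 CPM in hypoxia. Il1b rose from 0.638 and 0.401 to 2.48 and 1.43 CPM. The decoy receptor Il1r2 rose from 0.723 and 0.535 to 5.13 and 5.54 CPM. With a mean level of at least 5 CPM required, 5 rose and 3 fell.

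Interferon-stimulated genes were largely not called, 22 of 37 tested, with 6 higher, 9 lower and a median log2 fold change of -0.14. Ifi35 fell from 23.8 and 18.3 to 5.96 and 3.68 CPM. Bst2, which tethers virus particles, fell from 95.4 and 75.1 to 47.8 and 37.6 CPM. Isg15 was at 5.02 and 2.98 CPM in normoxia and 3.89 and 2.75 CPM in hypoxia with overlapping groups. Isg20, an exonuclease that acts on viral RNA, rose from 0.553 and 0.980 to 3.83 and 3.68 CPM. Irf8, a factor of microglial identity, rose from 115 and 114 to 248 and 221 CPM. In antigen presentation 6 of 19 members rose and 8 fell, beside 30.9% and 31.0% of all tested genes. Fewer members rose without the first hypoxic library. Cd74, the invariant chain, rose from 126 and 111 to 566 and 526 CPM, although the class II genes H2-Aa, H2-Ab1 and H2-Eb1 had at most 3 counts in any library. Erap1, which trims peptides for class I, fell from 97.6 and 104 to 25.6 and 25.2 CPM. The immunoproteasome subunit Psmb10 fell from 55.7 and 44.9 to 26.6 and 21.6 CPM.

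Lysosomal genes rose modestly in the monocultures. Of 20 tested lysosomal genes 14 rose and 1 fell, with a median log2 fold change of 0.60. Atp6v1a, a subunit of the proton pump, rose from 448 and 455 to 1084 and 1177 CPM (log2 fold change 1.32, SE 0.11). The membrane protein gene Lamp1 was the member that fell, from 957 and 916 to 650.3 and 626 CPM. Of the 4 factors of the family that drives lysosomal genes, Mitf rose from 55.5 and 66.3 to 92.2 and 96.7 CPM and Tfe3 by 0.33 on the log2 scale, while Tfeb fell from 34.7 and 32.7 to 26.6 and 21.2 CPM and Tfec by 0.52 on the log2 scale. Of these the call of Tfe3 was lost without the first hypoxic (0.30), the first normoxic (0.35) or the second normoxic library (0.31), that of Tfeb without the second hypoxic (-0.32), and that of Tfec without the first hypoxic (-0.41) or the first normoxic library (-0.36). With all 16 BV2 and GL261 libraries in 1 fit the calls of Tfeb (-0.38) and Tfec (-0.39) were lost too. Among scavenger receptors 8 of 14 were not called, and Mertk, which clears dying cells, rose from 13.3 and 16.6 to 41.8 and 49.4 CPM. Trem2, a lipid receptor of microglia, was at 159 and 164 CPM in normoxia and 185 and 169 CPM in hypoxia and was not called. Over the joint list of scavenging and lysosome, 20 of 38 tested members rose and 5 fell (median 0.35). In the BV2 libraries with DMSO 5 of the 38 rose and 4 fell (median -0.03). The background there was 17.2% of genes higher and 20.2% lower.

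Iron and redox genes held large changes in both directions. Of 27 tested members 13 fell and 6 rose, beside 31.0% and 30.9% of all tested genes. Hmox1, which degrades heme, rose from 172 and 165 to 1124 and 1301 CPM (log2 fold change 2.85, SE 0.12), and Selenbp1, described above, is in the same list. The transferrin receptor Tfrc fell from 277 and 415 to 95.5 and 93.7 CPM, its normoxic libraries differing more than its hypoxic ones. Of 15 antioxidant genes 9 fell. Thioredoxin, Txn1, fell from 257 and 225 to 96.1 and 80 CPM. Gsr, glutathione reductase, fell from 69.5 and 77.5 to 23.4 and 21.7 CPM. Gclm, of glutathione synthesis, fell from 63.9 and 78.9 to 24.4 and 27.9 CPM.

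Some genes were silent in normoxia. Of 593 tested genes with at most 3 counts in each normoxic library, which passed the filter through other libraries and had almost no room to fall, the 5 with the highest hypoxic level were Gm13645, Grin1, Gipr, Cbln3 and Grb10. Grin1, a subunit of the NMDA glutamate receptor of neurons, had 0 counts in both normoxic libraries and 284 and 362 counts in the hypoxic ones, at least 134-fold above the floor of 3 counts taken per library. Gipr, a receptor of the gut hormone GIP, had 1 and 2 counts in normoxia and 232 and 224 in hypoxia, and Cbln3, a cerebellin, 0 and 2 counts against 208 and 191. Grb10, a growth factor receptor adaptor, had 3 and 2 counts in normoxia and 83 and 184 in hypoxia, and Gm13645, a predicted gene, 1 and 0 counts against 389 and 253. The 5 were taken for low normoxic and high hypoxic counts, so the gap between their groups follows from that choice. In the DMSO libraries each was also called higher.

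The identity of the cells was checked on marker genes. Of 27 myeloid and microglial markers 25 had counts in each of the 4 libraries, their summed level was 4122 and 4114 CPM in normoxia and 6225 and 6000 CPM in hypoxia, and the defining microglial genes Sall1 and Siglech had 0 counts in all of them. Of the 24 that passed the filter 9 rose, 7 fell and 8 were not called, with a median log2 fold change of 0.08, and the 7 became 3 without the second hypoxic and 4 without the second normoxic library. With 30.9% of all tested genes higher and 31.0% lower, the counts of these markers are near the background. Csf1r, the receptor of Csf1 and a macrophage marker, rose from 519 and 604 to 1138 and 1090 CPM. Laptm5, a lysosomal membrane protein of blood cells, rose from 1272 and 1281 to 1798 and 1848 CPM, and these genes hold much of the sum. P2ry12, a purine receptor of resting microglia, fell from 7.65 and 6.55 to 3.72 and 4.45 CPM. Tmem119, another such marker, was at 1.49 and 2.0 CPM in normoxia and 1.18 and 1.26 CPM in hypoxia and was not called. The pan-macrophage gene Cd68 was at 729 and 649 CPM in normoxia and 813 and 776 CPM in hypoxia and was not called. With a floor of 5 CPM Cd68 passed the threshold at a log2 fold change of 0.29. Of 29 markers of astrocytes, oligodendrocytes, neurons, vessels and fibroblasts 8 had 0 counts in all 4 libraries and 17 at most 3 counts in any of them, and the sum of all was 34.9 and 42.0 CPM in normoxia and 72.3 and 95.7 CPM in hypoxia. Most of that sum was Kdr, a receptor of Vegfa, at 27.3 and 34 CPM in normoxia and 59.6 and 80.5 CPM in hypoxia. Of the 18 markers of other cells that passed the filter 5 rose, 1 fell and 12 were not called (median log2 fold change 1.01). All 3 tested markers of vessels, Kdr among them, were called higher, with log2 fold changes of 1.19 to 2.24. The part of other cells in the results was not tested.

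The same comparison in BV2 cells with DMSO, which shares no library with the monocultures, gave values to set beside these. Of 13294 genes tested there 4980 were called (37.5%), 17.2% higher and 20.2% lower, at a larger coefficient of variation of 0.205. Among 12977 genes tested in both experiments, 2159 rose at least 2-fold in the monocultures, and 1404 of them (65.0%) were also called higher with DMSO, which is 62.2% of the 2257 genes called higher there. Of 1826 genes that fell at least 2-fold in the monocultures 1545 (84.6%) were called lower with DMSO, which is 57.6% of the 2684 called lower there. None of the genes that rose or fell at least 2-fold in the monocultures was called in the opposite direction with DMSO. Lists kept their direction in part: replication had 41 of its members lower and mitosis 32 with DMSO, and the unfolded protein response 12 of 23 higher. Its median was 1.81 in the monocultures and 0.84 with DMSO. The interferon-stimulated genes had a median of -0.14 in the monocultures and -1.07 with DMSO, where 18 fell and 2 rose. Cytosolic ribosomal proteins had medians of -0.26 and 0.38. Differences between the 2 experiments were not tested, since their tables were deposited separately. Leaving out the first hypoxic DMSO library lowered the count of called genes from 4980 to 2920.

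**Figure D4:**
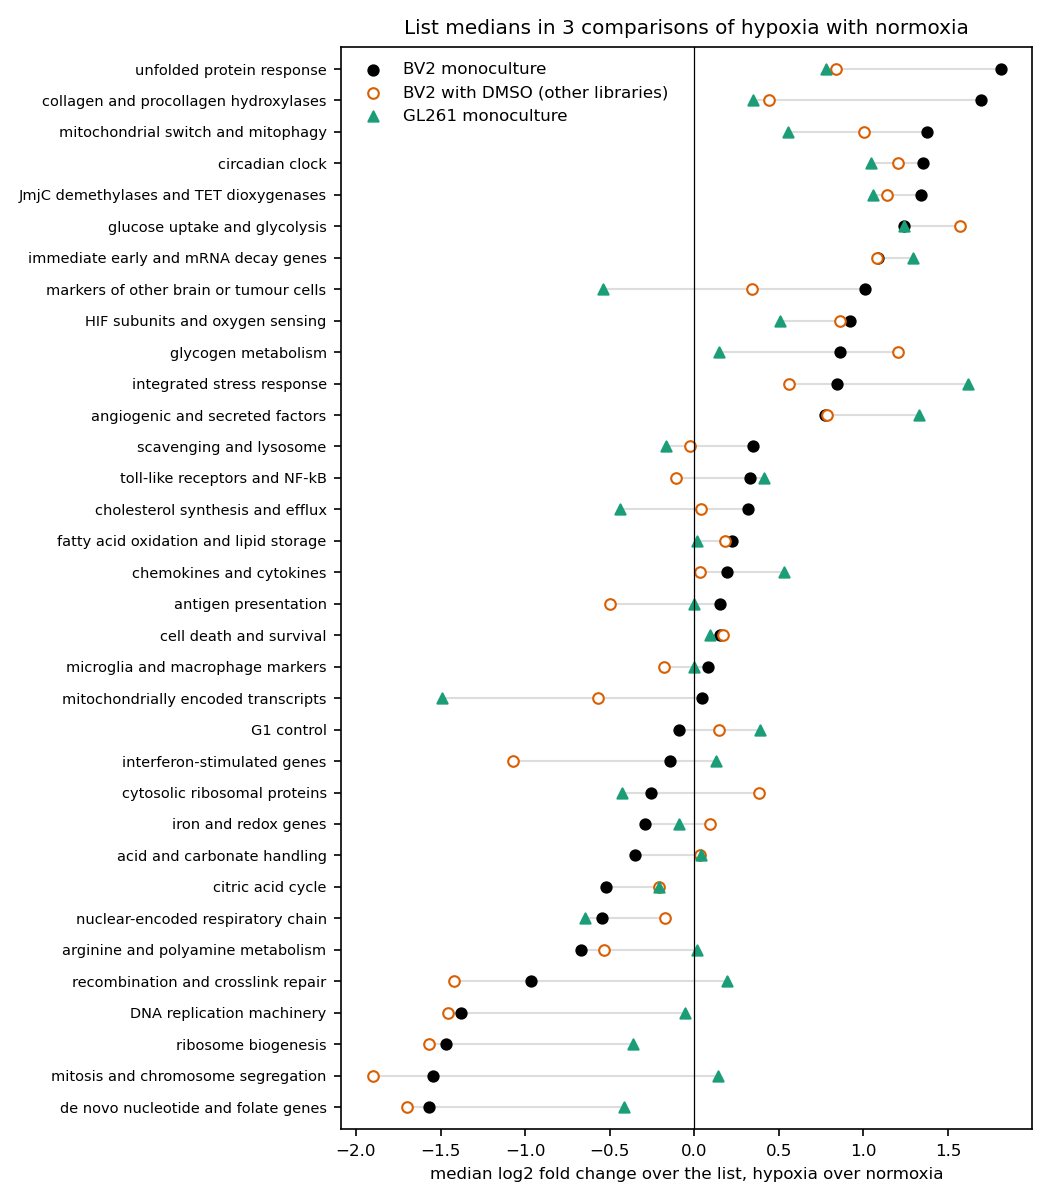
Median log2 fold change of each gene list (hypoxia over normoxia) in BV2 monocultures (filled black circles), BV2 cells with DMSO in other libraries (open orange circles) and GL261 glioma monocultures (green triangles), with lists in the order of the BV2 monoculture median. Mitosis has medians of -1.54 in BV2 monocultures and 0.14 in GL261 cells, and mitochondrially encoded transcripts 0.05 and -1.49.

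Where the BV2 response differed from that of another line was tested against GL261 glioma cells, as an interaction in a fit of 16 libraries. Of 16882 tested genes 6322 differed (37.4%), 18.7% with a higher and 18.7% with a lower effect in BV2, and the median difference over all tested genes was 0.15, so that single values are read relative to it. The difference comes from the common fit, so it can depart slightly from that of the 2 log2 fold changes printed, of which the BV2 value is from the 8-library fit. Division genes set the lines apart. The hypoxia effect was lower in BV2 for 38 of 46 replication genes, 31 of 33 mitotic genes and 34 of 41 genes of ribosome biogenesis, and higher for none of them. Aurka illustrates this: its log2 fold change was -2.33 in BV2 and 1.02 in GL261 cells, a difference of -3.23 (edgeR adjusted p 6.19e-07). On the other side, the effect was higher in BV2 for 17 of 23 genes of the unfolded protein response, 10 of 13 of glycogen metabolism and 10 of 12 mitochondrially encoded transcripts. Gys1 had log2 fold changes of 3.76 in BV2 and 2.31 in GL261 cells, and mt-Nd1 had log2 fold changes of -0.36 and -2.42.

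The 3 largest interactions in each direction under the same filters were Selenbp1, Gsn and Adamtsl5, higher in BV2, and Pif1, Slc25a25 and Orc2, lower in BV2. Gsn (ENSMUSG00000026879), which encodes the actin-severing protein gelsolin, was at 208 and 215 CPM in BV2 normoxia and 2041 and 1982 CPM in BV2 hypoxia, on the scale of the common fit. In GL261 cells it was at 190.2 and 182 CPM in normoxia and 72.5 and 73.6 CPM in hypoxia. Gsn was higher in hypoxic BV2 and lower in hypoxic GL261 cells. A lack of overlap between the 2 oxygen levels in both lines was required by the filters. Orc2, of the origin recognition complex, had log2 fold changes of -2.62 in BV2 and 0.77 in GL261 cells. Slc25a25, a mitochondrial carrier of ATP and phosphate, had log2 fold changes of -1.18 in BV2 and 2.61 in GL261 cells. The lactate pair also parted: Slc16a1 fell in BV2 and had a log2 fold change of 0.34 in GL261 cells, a difference of -1.76 (edgeR adjusted p 3.19e-05).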

How the data were processed

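Total RNA from BV2 and GL261 cells was sequenced as stranded poly(A) libraries in paired reads, per the labels' protocols. The authors deposited whole-number counts per gene, without normalization. Reads were trimmed with Trimmomatic 0.36, aligned with STAR 2.6 to mm10 and counted with HTSeq 0.9.1, with Picard 2.17.1 also named, per the submitters' processing notes. The strand setting and annotation release are not given in the sources used here.

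Counts were tested with edgeR 4.0.16 in R 4.3.3 (TMM, filterByExpr with a minimum of 10 counts and a total of 15, quasi-likelihood test, Benjamini-Hochberg adjustment at 0.05 over all tested genes), with the 8 BV2 co-culture and monoculture libraries sharing 1 spread and a mean per group. The SE is the log2 fold change over the root of F. The DMSO contrast used 6 libraries and the difference between lines 16. Depth was 17503508 to 23568254 counts here and 12848411 to 14356485 with DMSO. DESeq2 1.42.0 and the settings in the closing section were alternatives. The procedure was also run on simulated counts with 200 of 13903 genes changed. It recovered 61.2% of 1.5-fold, 82.1% of 2-fold and 100% of 4-fold changes, and called 10 unchanged genes. With so few genes changed, the simulation does not cover normalization where 61.9% of genes are called. With 2 libraries a group no permutation test could pass 0.05.

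Shared words are the percent of a gene's 75-base transcript words that other genes of GENCODE M21 also hold. Gene coordinates are from that annotation on GRCm38, the assembly of mm10. RefSeq promoters were matched by symbol: 69.5% of tested genes had one.

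Members and lists were chosen with earlier results of these data known. Genes named were the 12 largest rises and falls under the filters (groups without overlap, a mean log2 CPM of 4 or more, no predicted-gene name), marked anchors and the 3 largest changes each way in a list, the 5 highest genes silent in normoxia and the 3 largest differences from GL261 cells each way. Some genes that these rules name are not reported here. Others are examples chosen after their values were seen.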

Additional observations from a re-analysis of the deposited data

Results flagged for a closer look

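The hypoxia effect differed between BV2 and GL261 monocultures in 6322 of 16882 genes by the interaction test of edgeR. The largest differences toward BV2 were in Selenbp1 (6.29 on the log2 scale), Gsn (4.60) and Adamtsl5 (4.19). Adamtsl5, a secreted matrix protein, was at 5.97 and 4.19 CPM in normoxic and 70.3 and 73.2 CPM in hypoxic BV2 cells, and in GL261 cells at 68.7 and 67.6 CPM in normoxia and 55.4 and 49.6 CPM in hypoxia. The largest toward GL261 cells were in Pif1 (-3.92), Slc25a25 (-3.67) and Orc2 (-3.27). Pif1 was at 31.9 and 27.8 CPM in normoxic and 25.6 and 24.2 CPM in hypoxic GL261 cells. These genes were chosen for their difference, and no further test bears on it.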

How the results depend on the processing

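Counting error weighs most on genes near the floor of 3 counts, and the smallest log2 change called was 0.25. A floor of at least 5 CPM lowered the number of genes at least 2-fold higher from 2391 to 1447, fewer genes being tested (10022). Counts of called genes stayed within 1.5 times in 161 of 165 alternatives, list counts in 699 of 748, and all 78 values of the named differences from GL261 cells kept their direction and call. The median over all genes lay between -0.0182 and 0.0439 in the monocultures and between 0.0433 and 0.224 for the difference from GL261 cells, whose median was 0.15 as reported. Apart from the mitochondrially encoded transcripts, lists with 0 members called in a direction by edgeR had 0 there at an unadjusted p under 0.05 and with DESeq2 too, in the monocultures and for the difference from GL261 cells.

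Leaving out 1 library at a time gave 7681 to 8132 called genes in the monocultures (3779 to 4192 higher, 3780 to 4014 lower, and 2219 to 2469 and 1805 to 1934 at 2-fold), 5334 to 6401 for the difference from GL261 cells (2345 to 2772 and 2712 to 3629, and 1685 to 1942 and 1645 to 2218 at 2-fold) and 2920 to 4758 with DMSO (1405 to 2293 and 1515 to 2519, and 1198 to 1787 and 1348 to 2214 at 2-fold). The lone library is then assumed to vary like the other groups. The lowest DMSO values came without the first hypoxic library, and the cause was not tested.

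Values whose sign changed belonged to genes that were not called. Without 1 library the ranges were -0.04 to 0.45 for Canx, -0.28 to 0.74 for Car9, -0.26 to 0.06 for Hif1a, -0.60 to 0.14 for Isg15, -0.37 to 0.00 for Mthfd2, -0.07 to 0.06 for Pes1, -0.23 to 0.15 for Pfkfb3 and -0.12 to 0.38 for Tnf. In the 16-library fit Egln2 was at 0.00, Hif1a at 0.02, Pes1 at 0.10 and Pfkfb3 at 0.07. With a floor of 5 CPM Pes1 was at 0.06 and Pfkfb3 at 0.03, and Pes1 was at 0.01 with DESeq2 and with its size factors. Of 2447 values of named genes under alternatives 29 lost and 5 gained a call. Without mitochondrially encoded transcripts in the total, the mean share of counts of glycolysis in hypoxia was 4.03% in place of 3.93%, and that of DNA replication in normoxia 0.726% in place of 0.708%.

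The replicate numbers of the labels are not stated to mark a shared culture or day. Deviations of same-numbered normoxic and hypoxic monocultures correlated at 0.17, and those of other pairs of BV2 groups between -0.081 and 0.087. A fit with the replicate block called 8968 genes in the monocultures (4483 higher, 4485 lower, 2368 and 1968 at 2-fold), 6685 for the difference from GL261 cells (3364 and 3321, 2114 and 1725) and 6511 with DMSO (3008 and 3503, 1772 and 1962). Ppp1r3c, with no counts here, was at 0.02 with the block.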

Other observations

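Immediate early genes, the first to answer a signal, were listed together with genes of mRNA decay. Of 25 tested members of this list 17 rose, 4 fell and 4 were not called, with a median log2 fold change of 1.09. Ier3, a regulator of survival, was at 18.4 and 24.6 CPM in normoxia and 425 and 399 CPM in hypoxia (log2 fold change 4.26, SE 0.15). Dusp1, a phosphatase that shuts off MAP kinases, rose from 3.15 and 5.57 to 95.8 and 107 CPM. Of 7 AP-1 genes 6 rose, with Jun going from 86.7 and 99.7 to 622 and 606 CPM and Fosb from 0.212 and 0.535 to 4.89 and 5.16 CPM. Fosl1 was the AP-1 gene that fell, from 32 and 36.4 to 9.73 and 13.3 CPM, and 50.2% of the words of Fosl1 occur elsewhere too. Egr3 fell from 5.14 and 5.93 to 1.77 and 2.75 CPM, and Egr1 had at most 1 count in a library. The antiproliferative gene Btg2 rose from 10.1 and 12.2 to 95.7 and 108 CPM.

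The circadian clock moved beyond Rora. Of 14 tested clock genes 11 rose and 1 fell, with a median log2 fold change of 1.35. Per1, a repressor of the clock, rose from 30.4 and 31.1 to 176 and 177 CPM, and the output factor Dbp from 7.86 and 6.55 to 42.6 and 47.7 CPM. Clock itself was at 29.6 and 39.5 CPM in normoxia and 24.9 and 31.5 CPM in hypoxia and was not called, but passed the threshold at -0.49 without the first normoxic library. Nr1d1 was the member that fell, from 8.76 and 10.1 to 6.19 and 6.75 CPM, and this call was lost without the first hypoxic (-0.46) or the second normoxic library (-0.44). The call of Nr1d1 was also lost with all 16 BV2 and GL261 libraries in 1 fit (-0.42). Among 22 tested genes of cell death and survival 10 rose and 6 fell, 3 of these without the first normoxic library. The shares over all tested genes were 30.9% higher and 31.0% lower. Bbc3, the death activator PUMA, rose from 7.01 and 7.71 to 34.4 and 39 CPM, while Bid fell from 112 and 104 to 33.9 and 36.8 CPM and the pore former Bak1 from 155 and 122 to 84.5 and 66.5 CPM. The survival gene Mcl1 rose from 359 and 379.8 to 634 and 658 CPM. Of the p53 group, Mdm2 rose from 33.1 and 37.4 to 96.1 and 108 CPM and Zmat3 fell from 15 and 16 to 6.72 and 6.26 CPM.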
